A study of Homo sapiens with 4 samples.

Results

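Transcription factor and cofactor genes that direct red cell development were followed in RNA sequencing libraries of cells labelled NB4. The 10 genes were GATA1, GATA2, KLF1, TAL1, LMO2, LDB1, NFE2, GFI1B, ZFPM1 and BCL11A, out of 64252 Ensembl genes counted. They were found by Ensembl identifier. The genes were chosen by their erythroid roles and from the results of dBET1 against DMSO in these same libraries, so the fold changes of these members are given as a description without p-values. NB4 is an acute promyelocytic leukemia line with the PML-RARa fusion. Cells were treated for 24 h with 8 μM dBET1, a degrader of BET bromodomain proteins built from a JQ1-type moiety joined to a CRBN-binding moiety (2 libraries), or with DMSO (2 libraries). No genetic change separated the groups, and all libraries are labelled as 1 cell line, so that differences between lines were not measured. Nothing in the labels says that replicates came from separate cultures, and p-values then measure only the spread between these samples, which may be technical.

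GATA1 and GATA2 are zinc finger factors that bind GATA sequences in DNA. GATA2 acts in stem and progenitor cells, and GATA1 takes over its sites as erythroid cells mature. GATA1 works in a complex in which LMO2 and LDB1 bridge it to the basic helix-loop-helix factor TAL1, and LDB1 also holds enhancers to promoters. KLF1 activates adult globin and many other red cell genes, NFE2 acts with small Maf proteins at the globin locus control region, GFI1B and ZFPM1 (FOG1) restrain or assist GATA1 at its targets, and BCL11A silences the fetal globin genes.

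The libraries were first compared with their label. Total counts were 28019956 to 34685645 per library, and 17971 genes passed the count filter. Of 12 genes that mark promyelocytes and granulocytes, MPO, ELANE and CTSG had 0 counts in both DMSO libraries. Summed with AZU1 and PRTN3, these primary granule genes reached 17 and 15 counts in DMSO replicates 1 and 2, compared with 55 and 25 after dBET1. The 12 markers summed to 60.3 and 62.0 CPM (counts-per-million of the TMM-normalized library size) with DMSO and to 54.4 and 55.2 CPM with dBET1. Most of that came from SPI1, LYZ and CD33, and ITGAM had 0.674 and 0.320 CPM with DMSO and 5.66 and 4.98 CPM with dBET1. The part of this shift in the results below was not tested. Of the erythroid markers, TFRC, the transferrin receptor gene, had 2326 and 2066 CPM with DMSO and 1316 and 1349 CPM with dBET1. HBG2 had 2464 and 2985 CPM with DMSO and 1721 and 1762 CPM with dBET1. AHSP, with 6 counts in each DMSO library, was close to 0. The 4 lymphoid markers summed to 1.87 to 2.46 CPM per library and the 3 monocyte markers to 7.33 to 23.3 CPM. The defining granule genes of a promyelocytic line were thus at or near 0 in all 4 libraries, and "NB4" below is the label of the libraries only.

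Promoter sequence was examined because several of these genes are known to be bound by GATA1. RefSeq (GRCh38.p14) start sites were held here for 8 of the 10 genes, with 15 windows in all. LMO2 and NFE2 had none. In the 250 bases before each start site, the GATA letters AGATAA (or TGATAA) and AGATAG (or TGATAG), with all motifs searched on both strands, occurred in 3 of the 15 windows, against 22.3% of 35116 windows of the same length for all genes. The 3 windows belonged to KLF1, TAL1 and GFI1B. They are shown because they set a gene that was much lower after dBET1 (KLF1) beside 1 that was not lower (TAL1). Bases run 5′ to 3′ on the strand of the gene, and capitals mark the GATA letters.
KLF1, chr19:12887202-12887451, reverse strand: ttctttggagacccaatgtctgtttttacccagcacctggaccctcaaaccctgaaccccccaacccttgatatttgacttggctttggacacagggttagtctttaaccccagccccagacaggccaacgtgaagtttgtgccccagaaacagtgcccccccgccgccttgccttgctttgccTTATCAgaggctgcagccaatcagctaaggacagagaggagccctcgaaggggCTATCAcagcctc
TAL1, chr1:47232336-47232585, reverse strand: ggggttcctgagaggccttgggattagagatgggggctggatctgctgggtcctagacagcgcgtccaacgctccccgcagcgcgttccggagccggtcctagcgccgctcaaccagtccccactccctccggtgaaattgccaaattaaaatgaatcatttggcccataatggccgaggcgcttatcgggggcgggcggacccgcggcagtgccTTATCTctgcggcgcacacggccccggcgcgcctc
GFI1B, chr9:132978444-132978693, forward strand: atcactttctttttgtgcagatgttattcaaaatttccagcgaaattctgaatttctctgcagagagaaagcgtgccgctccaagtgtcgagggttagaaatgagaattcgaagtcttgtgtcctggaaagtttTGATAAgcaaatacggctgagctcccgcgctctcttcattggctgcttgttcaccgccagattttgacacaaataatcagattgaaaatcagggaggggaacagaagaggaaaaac

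In KLF1 the matches began 66 and 13 bases before the start site, and the window also held 2 CCAAT boxes and 1 E-box (CANNTG). In TAL1 the match began 35 bases before it. In GFI1B it began 116 bases before the start site of the downstream of its 2 windows. The windows of GATA1, GATA2, LDB1, ZFPM1 and BCL11A held none of these GATA letters. CACCC-type letters (CCNCNCCC, which also match GC boxes) were found in windows of 7 of the 8 genes, KLF1 being the exception, and in 53.4% of all windows. The former counts genes with a match in any of their windows and the latter single windows, so they cannot be compared directly. These letters are a description of the sequence, and binding was not measured.

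In DMSO the genes spanned a wide range of level. Per length (CPM per kilobase of merged exons, RPKM), KLF1 and GATA1 came first, with 130 and 156 RPKM for KLF1 and 133 and 152 RPKM for GATA1 in the DMSO libraries. Their order cannot be told, since the ranges overlapped. NFE2 followed at 97.4 and 103 RPKM, GATA2 at 75.3 and 81.1 RPKM and LDB1 at 68.5 and 70.9 RPKM, with no overlap between these neighbours. TAL1 stood at 20.6 and 19.8 RPKM. LMO2 (16.2 and 16.8 RPKM) and GFI1B (16.0 and 16.9 RPKM) overlapped each other, and ZFPM1 was lower at 8.28 and 10.6 RPKM. BCL11A had no counts. With the longest annotated transcript as length, 5 of the 10 genes kept their place, GATA1 then coming before KLF1 and GFI1B before TAL1 and LMO2. With dBET1 the order by mean level was GATA1 (101 RPKM), GATA2 (66.2 RPKM), NFE2 (52.1 RPKM), LDB1 (33.0 RPKM), KLF1 (31.2 RPKM), TAL1 (22.9 RPKM), GFI1B (11.7 RPKM), ZFPM1 (11.4 RPKM) and LMO2 (3.23 RPKM). GFI1B and ZFPM1 overlapped there, and KLF1 stood behind 4 genes.

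After dBET1 the family did not move as a block. LMO2 and KLF1 were about 5 times lower, LDB1 and NFE2 about 2 times lower, GATA1, GFI1B and GATA2 less so, and TAL1 and ZFPM1 were slightly higher. In 7 of the 10 genes both dBET1 libraries lay below both DMSO libraries, as they did in 37.4% of all tested genes. In 2 genes both dBET1 libraries lay above both DMSO libraries, as in 41.9% of all tested genes. BCL11A did not pass the count filter, so 9 of the 10 genes were tested. Most genes of similar abundance were also lower. Among the 4413 tested genes with DMSO means from 47.7 to 384 CPM, the span of the 9 tested members, 68.5% were lower without overlap and the median log2 fold change was -0.39. The share of lower members is near that of genes at their abundance. The median over the 9 tested members was -0.50, and over all tested genes 0.048. Since the cells were sequenced in bulk, fewer cells expressing a gene and less RNA per cell cannot be told apart. CPM are also relative to the counts of each library, so a change in total RNA per cell was not measured.

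**Figure D1:**
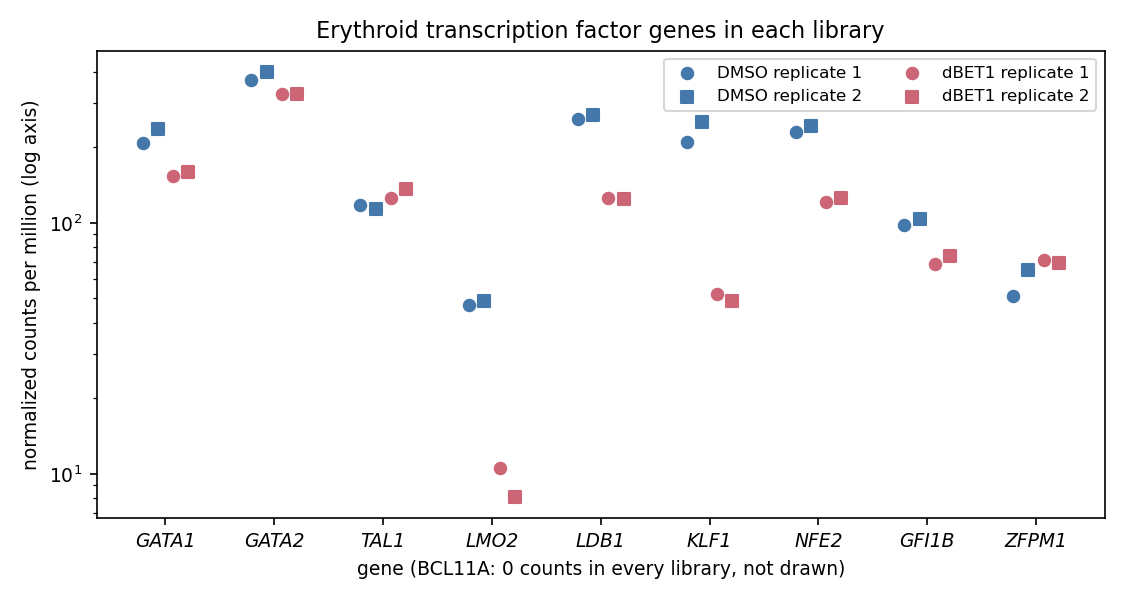
CPM (vertical log axis) of the 9 members with counts, 1 point per library, DMSO in blue and dBET1 in red, circles for replicate 1 and squares for replicate 2. LMO2 and KLF1 show the widest gap between the groups, while TAL1 and ZFPM1 lie slightly higher with dBET1.

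Of the GATA factors, GATA1 (chromosome X of hg38, 48786540 to 48794311, forward strand) had 207 and 236 CPM with DMSO and 154 and 160 CPM with dBET1. The groups did not overlap. Its level was 0.709 of that with DMSO, a log2 fold change of -0.50 (standard error 0.085). GATA2 (chromosome 3, 128479427 to 128493201, reverse strand) had 370.0 and 399 CPM with DMSO, and 326 and 325 CPM with dBET1. Its log2 fold change of -0.24 (standard error 0.072) was the smallest of the 7 that were lower, and it depended on the scaling. With total counts only, which moved the median of all genes from 0.048 to 0.26, its log2 fold change was -0.029 and the libraries of the groups overlapped. Exons of GATA2 share 78 bp with the antisense gene GATA2-AS1, which had 527 to 643 counts per library, against 9769 to 12073 for GATA2. The strand setting of the counting is not given in the sources used here, and reads in that overlap cannot be assigned to a strand.

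The 3 genes of the bridging complex went different ways. LMO2 (chromosome 11, 33858576 to 33892076, reverse strand), the LIM-only adaptor, had 1530 and 1366 counts with DMSO and 318 and 248 with dBET1. This was 46.9 and 48.6 CPM against 10.6 and 8.12 CPM, with a wide gap between the groups. The level with dBET1 was 0.196 of that with DMSO (log2 fold change -2.35, standard error 0.144), the lowest of the 9. LDB1 (chromosome 10, 102106489 to 102120368, reverse strand), the LIM-binding partner of LMO2, had 259 and 268 CPM with DMSO and 126 and 124 CPM with dBET1. The libraries of each group lay close together, and the fold change was 0.474 (log2 -1.08, standard error 0.071). TAL1 (chromosome 1, 47216290 to 47232225, reverse strand), the DNA-binding helix-loop-helix member, had 117 and 113 CPM with DMSO and 125 and 136 CPM with dBET1. It was slightly higher in both dBET1 libraries, with a log2 fold change of 0.18 (standard error 0.080) that ran from 0.10 to 0.39 over all alternatives. An unnamed long non-coding gene on the opposite strand shares 845 bp of exon with TAL1 and had 114 to 206 counts per library, against 3180 to 4159 for TAL1.

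KLF1 (chromosome 19, 12884422 to 12887201, reverse strand), the Krüppel-like activator of red cell genes, had 210 and 251 CPM with DMSO and 52.1 and 48.7 CPM with dBET1. Both dBET1 libraries lay far below the DMSO libraries. The fold change was 0.219 (log2 -2.19, standard error 0.105), and each library left out in turn gave log2 values of -2.34 to -2.09. NFE2 (chromosome 12, 54292111 to 54301015, reverse strand), the p45 subunit of the NF-E2 factor, had 230 and 243 CPM with DMSO and 121 and 125 CPM with dBET1. It was lower in both dBET1 libraries, at 0.520 of the DMSO level (log2 -0.94, standard error 0.074).

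The repressor GFI1B and the GATA1 cofactor ZFPM1 differed in direction. GFI1B (chromosome 9, 132944000 to 132991687, forward strand) had 97.9 and 103 CPM with DMSO and 68.6 and 73.9 CPM with dBET1, lower in both libraries (log2 fold change -0.50, standard error 0.084). Its exons share 349 bp with TSC1 on the opposite strand, and TSC1 had 669 and 590 counts with DMSO and 1349 and 1430 with dBET1, and reads in the overlap cannot be told apart. ZFPM1 (chromosome 16, 88453280 to 88537031, forward strand), which binds the amino-terminal zinc finger of GATA1, had 51.0 and 65.2 CPM with DMSO and 71.1 and 69.3 CPM with dBET1. The DMSO libraries differed from each other more than the dBET1 libraries differed from DMSO replicate 2. The log2 fold change was 0.27 (standard error 0.121), but 0.080 without DMSO replicate 1 and 0.43 without DMSO replicate 2.

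BCL11A (chromosome 2, 60450520 to 60554467, reverse strand) had 0 counts in all 4 libraries, which allows a level of up to 0.0919 to 0.107 CPM per library (3 counts, counting error only). The fetal and embryonic globin genes were abundant in the same libraries, with HBG2 at the level given above and HBE1 at 797 and 976 CPM with DMSO, while the adult gene HBB had 6 and 0 counts.

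**Figure D2:**
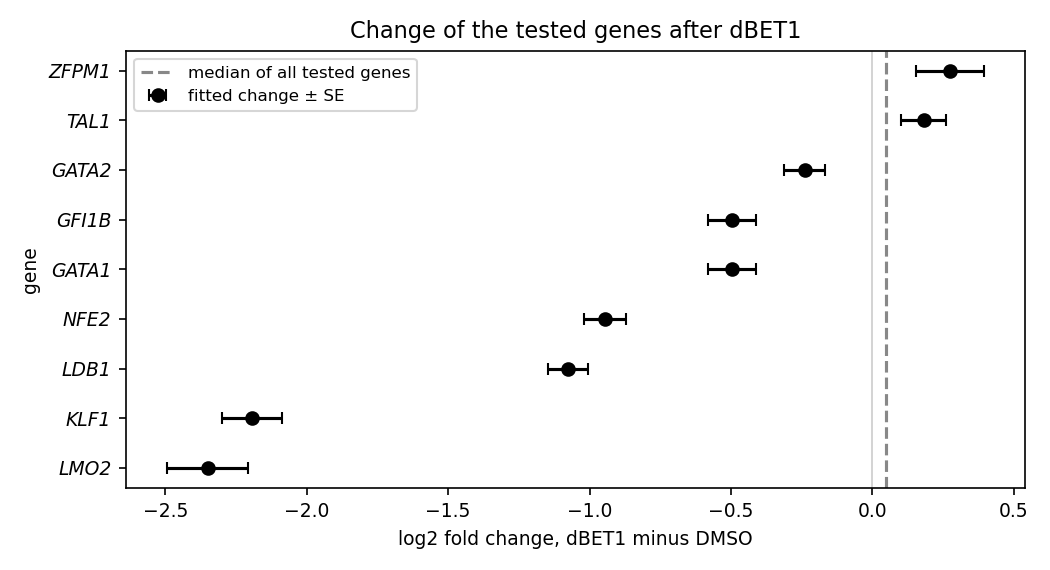
Log2 fold change of dBET1 minus DMSO (horizontal axis) for each of the 9 tested members, with bars of 1 standard error and a dashed line at 0.048, the median of all tested genes. LMO2 (-2.35) and KLF1 (-2.19) stand apart from the others, and TAL1 (0.18) and ZFPM1 (0.27) lie to the right of 0.

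Ratios between members within a library do not depend on how libraries are scaled to each other. Per length, LMO2 stood at 0.787 and 0.846 of TAL1 in the DMSO libraries and at 0.167 and 0.117 with dBET1, 5.75 times lower. LDB1 per TAL1 went from 3.33 and 3.57 to 1.52 and 1.37. KLF1 per GATA1 went from 0.975 and 1.03 to 0.326 and 0.293, 3.23 times lower. GATA1 per GATA2 went from 1.77 and 1.87 to 1.5 and 1.56, a smaller shift in which the groups still did not overlap. ZFPM1 per GATA1 was higher with dBET1, at 0.117 and 0.109 against 0.0621 and 0.0697. GFI1B per GATA1 was 0.120 and 0.111 with DMSO and 0.113 and 0.118 with dBET1, and the groups overlapped. These ratios rest on the same libraries and contrast as the fold changes above and are given without a test.

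**Figure D3:**
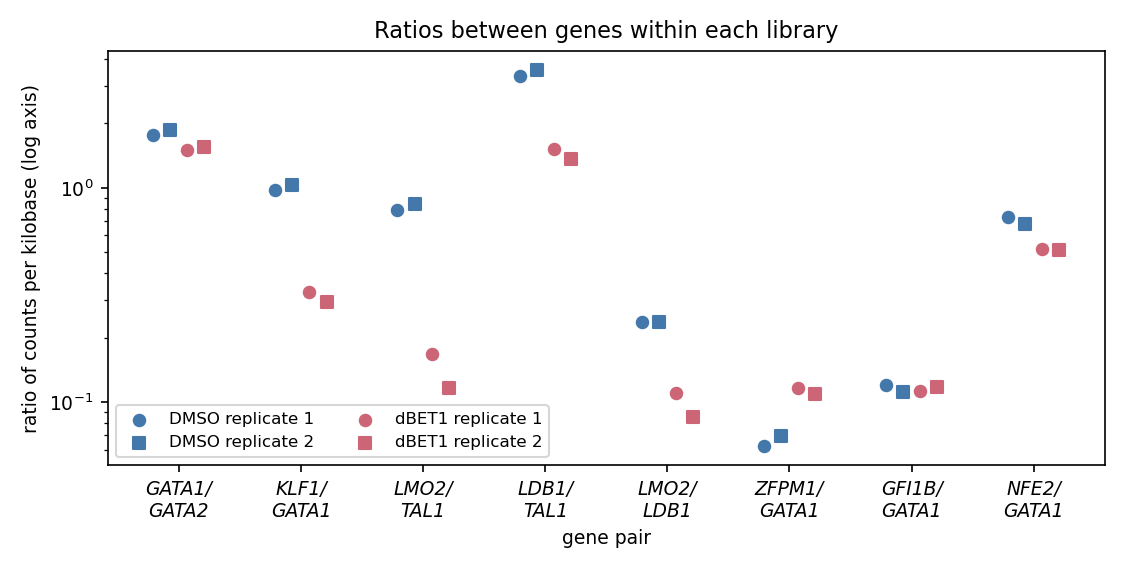
Ratio of counts per kilobase between pairs of members within each library (vertical log axis), DMSO in blue and dBET1 in red. LMO2 per TAL1, LDB1 per TAL1 and KLF1 per GATA1 are lower with dBET1, ZFPM1 per GATA1 is higher, and GFI1B per GATA1 overlaps between the groups.

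Profiles over the 4 libraries were also compared with that of GATA1, by the Euclidean distance of log2 values centred on the mean of each gene. Of 9723 tested genes with a mean of at least 10 CPM, the nearest were GSTP1 (distance 0.0205), LYPLA2 (0.0273) and ALG13 (0.0348). Among the members, GFI1B was nearest, at 0.0867 and rank 88. GATA2 was at 0.263 (rank 1683), against a median distance of 0.539. KLF1 (1.69) and LMO2 (1.84) were the members farthest from it. With 4 libraries the profile is mostly the difference between the groups.

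Genes of the proteins that work with these factors were then examined, and for them the edgeR test is given. These lists and the target lists below were also chosen with earlier results of these data known. Their p-values and counts are therefore descriptive and not an independent test. Of 37 partner and cofactor genes, 35 were tested, and edgeR's quasi-likelihood test called 19 lower and 9 higher at an adjusted p below 0.05, against 27.6% and 28.0% of all tested genes. Scaled by total counts alone, the numbers were 13 and 11. Without dBET1 replicate 2, 5 were higher, and without dBET1 replicate 1, 6 were. Past a 2-fold change as well there were 3 lower and 2 higher genes, against 8.54% and 16.9% of all tested genes. Without GFI1, which passed the count filter only through the dBET1 libraries, 8 were higher, 1 of them past 2-fold. The median log2 fold change of the 35 was -0.38, against 0.048 over all tested genes and -0.39 over genes at the abundance of the members. The DMSO means of the 35 ran from 0.046 (GFI1) to 740 CPM (CHD4), a wider span than that of the members.

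Among the partners of the TAL1 complex, TCF3, 1 of 3 E protein genes in the list whose products pair with TAL1, fell from 392 ± 30.8 to 164 ± 2.12 CPM (SD over the 2 libraries of a group, as in all values below; log2 fold change -1.26, adjusted p = 2.04e-05). Of the other E protein genes, TCF4 rose from 31.3 ± 5.82 to 40.9 ± 0.655 CPM (adjusted p = 0.0412), and TCF12 had 52.2 ± 8.51 and 41.8 ± 2.63 CPM (adjusted p = 0.0605). SSBP4, a single-stranded DNA-binding protein that binds LDB1, fell from 140 ± 29.0 to 60.4 ± 4.34 CPM (adjusted p = 0.000257), while its relative SSBP3 rose from 91.9 ± 3.21 to 136 ± 1.19 CPM (adjusted p = 0.000532). The TAL1 relative LYL1 fell (log2 fold change -0.76) and the LMO2 relative LMO4 rose (0.84). LMO1 and LDB2, the closest relatives of LMO2 and LDB1 in the list, had 0 counts. In all, 3 of 8 tested complex partners were lower and 3 were higher, against 27.6% and 28.0% of all tested genes.

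Of 12 corepressor and coactivator genes, 8 were lower and 1 was higher, against 27.6% and 28.0% of all tested genes. At the DMSO level of the members, 68.5% of tested genes were lower without overlap of the libraries, a looser measure. MTA2 (log2 fold change -0.98, adjusted p = 3.94e-05) and RBBP7 (-0.92, adjusted p = 4.17e-05), subunits of the NuRD complex that ZFPM1 recruits, fell the most, while CHD4, the NuRD helicase, had a log2 fold change of -0.028 (standard error 0.066). CBFA2T3 (ETO2), a corepressor of the TAL1 complex, fell from 171 ± 5.01 to 111 ± 9.07 CPM (adjusted p = 0.000557). CREBBP, an acetyltransferase that acetylates GATA1, rose by a log2 fold change of 0.43 (adjusted p = 0.00516).

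Of the 7 small Maf and NFE2-related genes, 3 were lower and 3 were higher, against 27.6% and 28.0% of all tested genes. MAFG, a small Maf partner of NFE2, fell (log2 fold change -0.46) and so did NFE2L2 (-0.39). BACH2 (1.17) and MAFF (0.81) rose, and BACH1, a repressor that competes for NFE2 sites, rose from 42.3 ± 4.64 to 66.8 ± 4.62 CPM (adjusted p = 0.00148, named after its value was seen). Among 8 regulators of globin switching and progenitors, 5 were lower and 2 were higher, against the same shares of 27.6% and 28.0%. MYB, the progenitor factor, fell from 215 ± 17.4 to 59.5 ± 1.43 CPM (log2 fold change -1.86, adjusted p = 8.74e-06), and SOX6, which acts with BCL11A at the fetal globin genes, fell by 0.77 on the log2 scale. NR2C2 rose by 0.29. The other gene called higher was GFI1, the relative of GFI1B, with 3 and 0 counts in DMSO against 13 and 41 after dBET1. It passed the count filter only through the dBET1 libraries and is named after its values were seen.

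Of 11 factors of other blood lineages 7 were tested, 2 were lower and 2 were higher, against 27.6% and 28.0% of all tested genes. FLI1 and IRF8 had 0 counts in all libraries, and ERG and RUNX3 had at most 2. SPI1 (PU.1), the myeloid factor that opposes GATA1, fell from 28.2 ± 0.767 to 22.4 ± 2.02 CPM (adjusted p = 0.0409). RUNX1 had 78.4 ± 10.7 CPM with DMSO and 77.8 ± 0.560 CPM with dBET1 (SD, n = 2; log2 fold change -0.011, standard error 0.105). HHEX rose from 111 ± 2.53 to 219 ± 4.07 CPM (adjusted p = 3.50e-05). CEBPA, the other gene called higher, passed the count filter only through the dBET1 libraries and is given by its counts, 5 and 7 with DMSO against 58 and 54 with dBET1. ETV6 fell by 0.41 on the log2 scale (adjusted p = 0.0478). Of the other GATA genes, GATA3 had 0 counts, GATA4 had 2 to 6, GATA5 had 49 to 93 and GATA6 had 8 and 12 with DMSO and 59 and 28 with dBET1, and it too passed the filter only through dBET1.

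Known target genes of the erythroid factors were more often lower than higher. Of 47 such genes 43 were tested, with 24 called lower and 9 higher, against 27.6% and 28.0% of all tested genes. Of these, 14 and 2 were past a 2-fold change, against 8.54% and 16.9%. SLC4A1, 1 of the higher genes, passed the count filter only through the dBET1 libraries, and 8 were higher without it, 1 of them past 2-fold. The median log2 fold change was -0.65, against 0.048 over all tested genes and -0.39 over genes at the abundance of the members. The target genes spanned a wider range, with DMSO means from 0.357 (TSPO2) to 2724 CPM (HBG2), so the -0.39 is not matched to them. Shares of called genes at their abundance were not computed. When either dBET1 library was left out, 4 were higher. All 7 tested globin genes fell, with the embryonic HBZ going between 366 ± 24.1 and 90.4 ± 0.899 CPM (log2 fold change -2.02, adjusted p = 4.89e-06), and HBD, at 4.29 and 1.06 CPM, fell by 2.02. HBG2 fell by less, by 0.65 on the log2 scale. Reads of HBA1 and HBA2, and of HBG1 and HBG2, can be shared between near-identical copies.

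The heme list had 5 lower and 3 higher genes of 10, against 27.6% and 28.0% of all tested genes. UROD fell by 1.08 on the log2 scale and ALAS2, the erythroid first enzyme, fell from 79.2 ± 4.39 to 41.1 ± 0.564 CPM (adjusted p = 9.30e-05), whereas ALAD rose from 20.4 ± 3.21 to 50.3 ± 3.53 CPM (adjusted p = 0.000134) and UROS rose by 0.39 on the log2 scale. In the membrane and surface list 7 of 17 were lower and 6 were higher, SLC4A1 included, against the same shares. ERMAP rose by a log2 fold change of 0.95. SLC4A1, the band 3 anion exchanger gene, had 22 and 9 counts with DMSO and 68 and 81 with dBET1. Of 9 tested receptor and enzyme genes, 5 were lower and 0 were higher, against the 27.6% and 28.0% of all tested genes. HEMGN, a nuclear regulator of erythroid cells, fell from 112 ± 8.51 to 18.7 ± 0.808 CPM (log2 fold change -2.58, adjusted p = 4.41e-06), and KIT fell by 2.65 on 255 and 114 counts with DMSO and 30 and 27 with dBET1. EPOR was at -0.35 on the log2 scale (standard error 0.156) with an adjusted p of 0.0865.

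**Figure D4:**
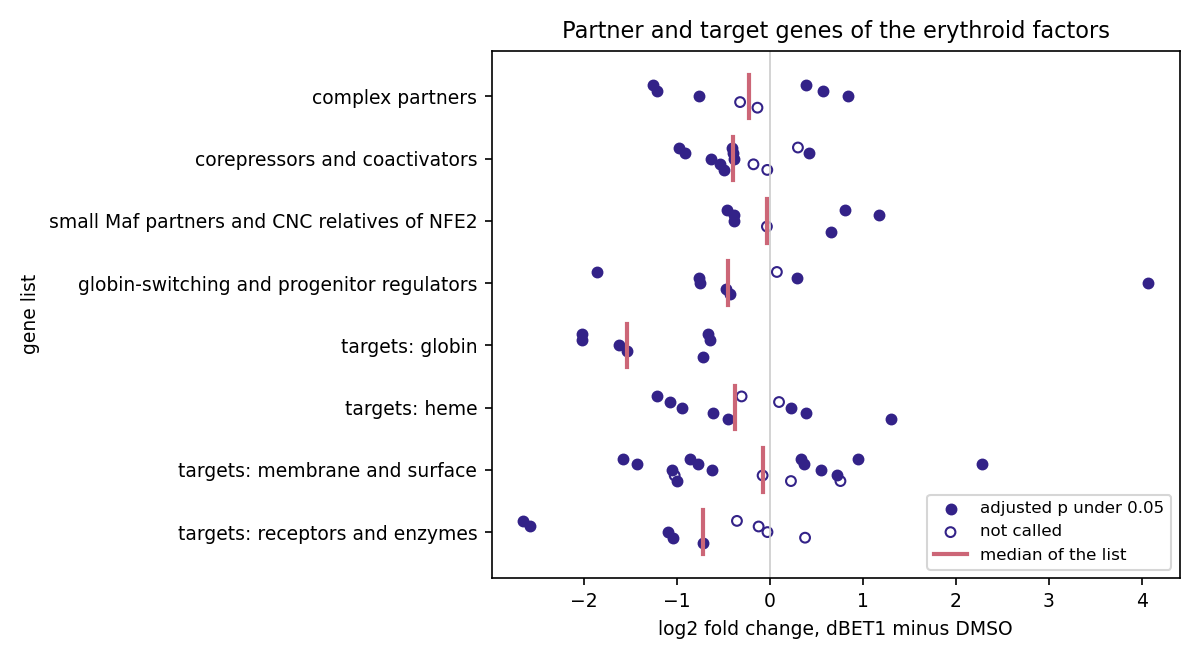
Log2 fold change of dBET1 minus DMSO (horizontal axis) of each tested gene in 8 lists of partners and targets, filled where the adjusted p of edgeR's quasi-likelihood test was under 0.05, with the median of each list as a red bar. All 7 tested globin genes lie left of 0. The point at 4.07 is GFI1, which passed the count filter only through the dBET1 libraries.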

How the data were processed

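The authors prepared TruSeq libraries from total RNA, obtained paired-end reads already filtered by their provider, mapped these onto hg38 using HISAT2 2.2.0, estimated abundances with StringTie, and deposited whole-number counts per Ensembl gene without normalization. RNA extraction was with TRIzol per the labels and with a column kit per the paper. How abundances became counts is not given in the sources used here. Columns were matched to samples by treatment, time and replicate number, and those named NC were taken as DMSO, the only control group in the labels. GENCODE release 44 on hg38 named 56105 of 64252 identifiers, and the others held 2.57% of counts. Its gene lengths may differ from those of the authors' annotation.

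The members and gene lists were chosen with earlier results of these data known. Counts were filtered with filterByExpr, scaled with TMM factors and tested in edgeR 4.0.16 (R 4.3.3) by the quasi-likelihood test with group as the only term. Adjusted p-values are Benjamini-Hochberg over all 17971 genes. Standard errors were derived from the fold change and its F statistic. The script was tested on 3 simulated data sets, each with 200 genes changed up or down and a shared dispersion for all genes. Of the genes changed 2-fold, 69.7% to 80.8% were called. In the data 27.6% of tested genes were called lower and 28.0% higher, so the simulation cannot give the error rate there. Replicates differed beyond sampling noise (chi-square per degree of freedom 23.6 for DMSO and 8.14 for dBET1), and were kept as separate samples. Besides fixed genes (SPI1, RUNX1, MYB, TCF3, CBFA2T3, HBG2, HBZ, ALAS2 and EPOR), up to 2 called genes of at least 1 CPM were named per list and direction, by size of change. LYL1, TCF4, TCF12, CHD4, BACH1, GFI1, HBE1, HBB, TFRC, AHSP, ITGAM, ERG, RUNX3, the other GATA genes and the genes without counts are named outside this rule, after their values were seen. Some genes that the rule names are not reported here. The analysis was repeated with DESeq2 1.42.0, with edgeR under DESeq2 size factors or total counts, with no filter or 10 counts in every sample, with the replicate block, with counts divided by 2 and without each library in turn. Profiles used log2(CPM + 0.5).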

Additional observations from a re-analysis of the deposited data

How the results depend on the processing

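No member changed direction under any of the 11 alternative fits. With total counts only, the median log2 fold change of the members was -0.29, against -0.50, and GATA2 no longer separated the groups (6 members lower). Without a count filter, 5 erythroid target genes and 4 partner and cofactor genes were higher, against 9 and 9. The cause was not tested. When single libraries were omitted, the members' median was -0.61 to -0.47, 4 to 9 target genes and 5 to 10 partner genes were higher, and 23 to 26 target genes and 14 to 21 partner genes were lower. In these fits the spread of the group with 1 library is assumed to be that of the other. With the longest transcript as length, 5 of 10 members kept their rank. Deviations of same-numbered libraries showed no correlation over genes (-0.00052). The labels do not say whether replicate numbers pair the samples, and this value cannot decide it. With the replicate block 24 target genes were lower and 8 higher, and 19 and 10 partner genes. SDs rest on 2 values, and BCL11A, at 0 counts, is limited by depth.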

Other observations

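Megakaryocytes share GATA1, TAL1, NFE2 and GFI1B with erythroid cells. Of 12 megakaryocyte target genes, 4 passed the count filter in both groups, and PF4, PPBP and VWF had 0 counts in all 4 libraries. At an adjusted p under 0.05 (edgeR's quasi-likelihood test), 1 of these was lower and 2 were higher, all 3 at low levels. Over all tested genes, 27.6% were lower and 28.0% were higher. TUBB1, the platelet tubulin, fell from 2.29 ± 0.271 to 0.528 ± 0.0871 CPM (SD over 2 libraries; adjusted p = 0.00151). The integrin gene ITGA2B rose from 2.37 ± 0.367 to 4.31 ± 0.345 CPM (adjusted p = 0.0209), and GP1BA rose from 1.41 ± 0.125 to 3.0 ± 0.338 CPM (adjusted p = 0.0120).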
